A study of Mus musculus with 21 samples.

Results

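Cobalt chloride (CoCl2) is used to imitate low oxygen, and the question here was how far its transcript changes in a melanoma line matched those of low oxygen itself. The quantity followed was the log2 change after CoCl2 minus the log2 change after hypoxia, computed for each of 8251 genes from all 21 arrays of the series. Cells were mouse B16-F10, an established melanoma line of C57BL/6J origin, and their RNA was read on Affymetrix Murine Genome U74Av2 arrays. In experiment 3, CoCl2 was given for 24 h at 100 µM (2 arrays) or 200 µM (2 arrays), and the matching controls were 2 arrays from cells kept at 21% oxygen. Hypoxia meant 24 h at 1% oxygen, produced in a sealed chamber (3 arrays, with 2 controls) or, in experiments 1 and 2, in an incubator with regulated oxygen flow (3 arrays and 2 controls in each). No arrays are shared by the CoCl2 arm, with its 6 arrays, and the hypoxia arm, with its 15. CoCl2 and hypoxia were never run in the same experiment, so the agent and the experiment cannot be told apart beyond what each arm's own controls remove. The labels call the arrays of a group biological replicas and say no more on how the cultures were kept apart.

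Cells sense oxygen through prolyl hydroxylases of the EGLN family, iron enzymes that need oxygen to mark the alpha subunits of the hypoxia-inducible factors (HIF) for destruction through VHL. When oxygen is short the marking fails, HIF alpha pairs with ARNT, and genes for glucose uptake, glycolysis, blood vessel growth and mitophagy are switched on. Cobalt interferes with the same enzymes at normal oxygen, which is why it serves as a mimic, but it is also a toxic metal that disturbs thiols, other iron enzymes and protein folding. In melanocytes and melanoma cells the pigment genes depend on the transcription factor MITF.

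Values are log2 signals, so a change of 1 is a factor of 2, and every difference below is the CoCl2 change minus the hypoxia change, with its standard error from the model. A gene was called at an adjusted p under 0.05 in limma. Genes called in both arms with 1 sign are termed shared, and genes called in both with opposite signs are termed opposite. Cobalt-only genes were called with CoCl2 and not with hypoxia, hypoxia-only genes were called with hypoxia and not with CoCl2, and all genes of these classes except the shared ones also had to be called for the difference itself.

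Several measures of the arrays differed between the arms. The 3′ minus 5′ signal of the Actb control probe sets, a measure of RNA integrity and copying in which higher is worse, was 2.16 to 2.36 at 100 µM, 0.50 to 1.47 at 200 µM and 1.41 to 1.62 in the controls of experiment 3. In the hypoxia sets it was 0.15 to 0.43 on hypoxia arrays and 0.22 to 0.50 on controls. Arrays of a pair correlated at 0.980 (100 µM) and 0.986 (200 µM) across genes, against 0.993 to 0.998 in the hypoxia and control groups. The controls themselves were not alike: 2600 genes (31.5% of those tested) differed between the controls of experiment 3 and those of the hypoxia sets, and 3948 (47.8%) between CoCl2 and hypoxia arrays. Of the 2092 genes called for the difference of changes, 947 had controls that differed in the sense opposite to the difference, and in 1433 the treated levels alone also differed in the direction of the difference. Part of this follows from the arithmetic, since the difference of changes is the difference of treated levels minus that of controls. With the Actb measure as a term in the model, 2235 genes were called for the difference in place of 2092. Among genes named below, Bag3, Ddit3, Tyro3, Ifi30, Tfrc, Ireb2 and Epas1 had controls that differed and treated levels that were not called. The same held for Lgals3, Ccng2, Mt2 and Il6. The part of the starting level in the results was not tested.

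More genes were called with CoCl2 than with hypoxia, in both directions. The CoCl2 arm had fewer arrays and a median standard error of 0.121, against 0.0736 for hypoxia. These errors rest on 1 spread per gene, pooled over all groups. Within groups the median standard deviation was 0.181 at 100 µM and 0.134 at 200 µM, against 0.0574 to 0.122 elsewhere. The errors of the CoCl2 arm may therefore be too small, and its number of calls too large. CoCl2 called 3820 genes (46.3%), of which 1919 were higher (23.3%) and 1901 lower (23%), and hypoxia called 2642 (32.0%), of which 1036 were higher (12.6%) and 1606 lower (19.5%). The CoCl2 and hypoxia changes differed in 2092 genes (25.4%), with 770 higher (9.33%) and 1322 lower (16%) after CoCl2. Among these, 56 were higher and 321 lower by at least 1 log2 unit. Shared changes covered 1580 genes, 482 up and 1098 down, which was 41.4% of the CoCl2 calls and 59.8% of the hypoxia calls. Of the genes lower in hypoxia 68.4% were shared falls, and of those higher in hypoxia 46.5% were shared rises. A further 959 genes were cobalt-only (467 up, 492 down), 265 were hypoxia-only (146 up, 119 down) and 183 were opposite, 47 higher and 136 lower after CoCl2. Another 1712 genes were called in 1 arm while the difference was not called, so they were put in no class, and 3552 were called in neither arm, 46 of them with a called difference. Across the 8251 genes, which are not independent replicates, the CoCl2 and hypoxia changes had a Pearson r of 0.571 and a Spearman rho of 0.523. Against the single sets r was 0.636 for the chamber, 0.462 for experiment 1 and 0.443 for experiment 2.

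**Figure D1:**
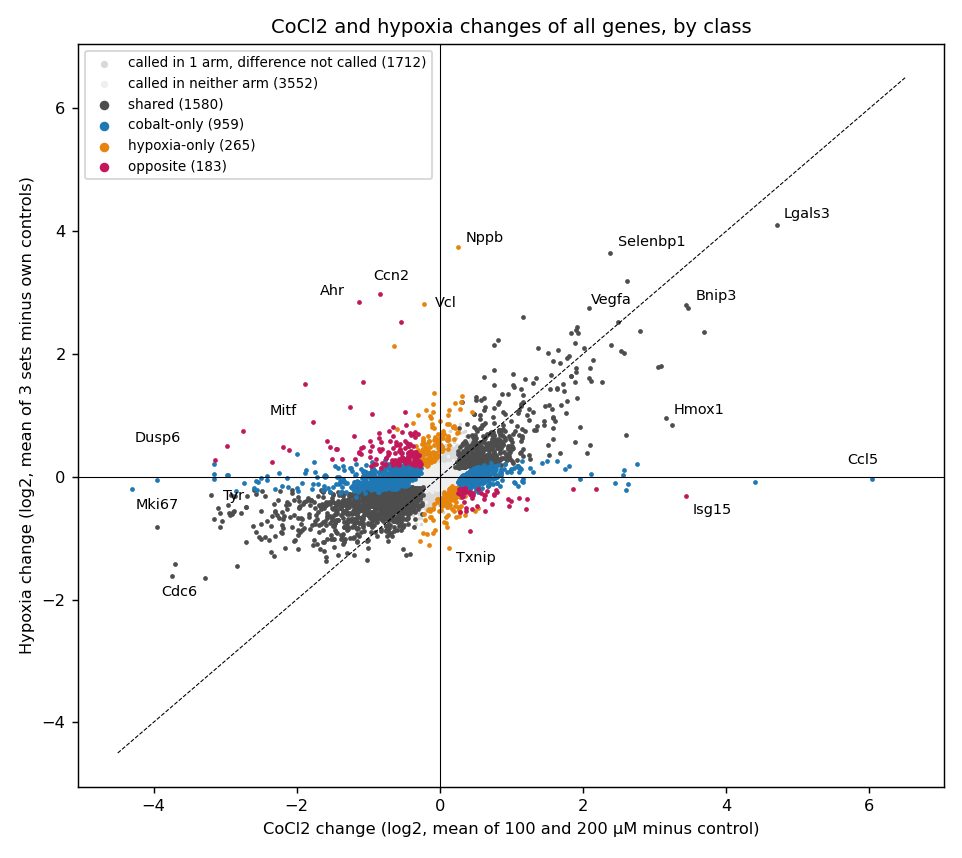
Each point is 1 gene, with its CoCl2 change (log2, mean of both doses minus controls) on the horizontal axis and its hypoxia change (log2, mean of 3 sets minus their controls) on the vertical axis, coloured by class with the number of genes in brackets; the dashed line marks equal changes. Lgals3, Bnip3 and Vegfa lie near the dashed line, Ccl5 (6.04 against -0.03) lies far out on the CoCl2 axis, and Nppb (0.25 against 3.74) lies near the hypoxia axis.

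The call of a class rests on thresholds. Lgals3, with a difference of 0.61 and an adjusted p of 0.0531, fell just outside the called differences, and the HIF subunit gene Epas1, with 0.40 and an adjusted p of 0.0419, fell just inside. Of the cobalt-only rises 24% had a mean level among the lowest 25% of genes, against 2.94% to 9.59% for the other directions of the 4 classes. Several named genes had a second, dimmer probe set on which the difference was not called, among them Arnt (0.00), Atf3 (0.24), Relb (0.22), Pkp2 (0.17), Dusp6 (0.03), Tyro3 (0.33) and Tfrc (0.68), and others are given beside their values. A further probe set of Atf3 (1.18) and of Pkp2 (0.53) was called in the same direction as the one used. The uncalled sets of Arnt, Pkp2 and Dusp6 had mean levels of 2.51, 2.51 and 2.47, against a median of 5.98 over all genes.

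Targets of HIF rose together in both arms, with equal medians. Of 27 measured HIF targets outside glycolysis, 23 rose with CoCl2 and 22 with hypoxia, 21 of them in both, and their median change was 1.64 with CoCl2 and 1.64 with hypoxia, against 0.12 and 0.01 over all genes. Vegfa, which encodes the main growth factor for blood vessels, had a signal of 6.65 and 6.88 at 100 µM and 7.26 and 7.82 at 200 µM, against 4.63 and 4.69 in their controls. In hypoxia its signal was 6.51 at the lowest, 7.69 at the median and 8.30 at the highest, against 4.93 to 5.16 in controls. All treated arrays were above all controls, and the changes of 2.49 ± 0.15 with CoCl2 and 2.52 ± 0.09 with hypoxia left a difference of -0.03 ± 0.18 (adjusted p = 0.926). Bnip3, a mitophagy receptor, rose by 3.47 with CoCl2 and by 2.76 with hypoxia, a difference of 0.71 ± 0.18 (adjusted p = 0.00511). Lgals3, which encodes galectin-3, rose by 4.71 ± 0.19 with CoCl2, where only Ccl5 rose more, and by 4.10 ± 0.12 in hypoxia, the largest change of any gene there. Controls of Lgals3 in experiment 3 were 0.71 below those of the hypoxia sets. Its CoCl2 arrays lay 0.10 below the hypoxia arrays, which was not called. Other shared rises named by rule were Pkp2, a desmosomal plakophilin (3.44 with CoCl2, 2.81 with hypoxia), the stress gene Ier3 (3.69 and 2.36), the glucose transporter Slc2a1 (2.80 and 2.38) and the cyclin G2 gene Ccng2 (2.62 and 3.18). Controls of Ier3 in experiment 3 were 2.28 below those of the hypoxia sets, and its CoCl2 arrays lay 0.95 below the hypoxia arrays.

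The promoter of Bnip3 is shown because this HIF target rose strongly in both arms. It is the stretch of 250 bases before the start site at chr7:138909507-138909756 (minus strand, GRCm38.p6, RefSeq), with the cores of the hypoxia response element in capitals, that is ACGTG or GCGTG on either strand, where the palindromic form counts on both strands.
Bnip3: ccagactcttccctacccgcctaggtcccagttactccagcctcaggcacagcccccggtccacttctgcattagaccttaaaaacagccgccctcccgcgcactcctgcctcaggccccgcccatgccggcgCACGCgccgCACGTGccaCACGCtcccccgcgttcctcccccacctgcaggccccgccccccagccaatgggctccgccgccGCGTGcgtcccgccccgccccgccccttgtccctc
It held 5 matches, the nearest beginning 35 bases before the start. Over the 6576 tested genes with an entry in the promoter table, 53% had at least 1 such core in this window, against 64% (258 of 404) of shared rises, 63% (578 of 918) of shared falls and 76% (19 of 25) of the HIF target list. A match describes the letters of the window and is not a site.

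Several HIF targets rose less with CoCl2. Over all genes the difference was called higher for 9.33% and lower for 16%. Of the 27, the difference was called higher for 5 and lower for 6, and with 1 dose alone as the CoCl2 arm it was 1 higher and 4 lower at 100 µM and 8 higher and 7 lower at 200 µM. Only 2 were higher without control array 2 of experiment 3, and 9 were lower without 100 µM array 2, against 4 without control array 1 of experiment 3. Selenbp1, a selenium-binding protein gene, had a signal of 8.15 and 8.60 at 100 µM and 7.38 and 8.17 at 200 µM, against 5.73 and 5.66 in controls. In hypoxia it had 9.52 to 10.14 with a median of 9.88, against 5.94 to 6.52 in controls, so the hypoxia arrays were all above the CoCl2 arrays. Its change was 2.38 with CoCl2 and 3.64 with hypoxia, a difference of -1.26 ± 0.18 (adjusted p = 2.11e-05). Adm, encoding the vasodilator adrenomedullin, rose by 1.16 with CoCl2 and by 2.61 with hypoxia. Egln1, which encodes the oxygen sensor that cobalt interferes with, rose by 1.37 with CoCl2 and by 2.11 with hypoxia (difference -0.73 ± 0.15, adjusted p = 0.00116). Its rise was smaller at the higher dose. Egln1 had 9.57 and 10.25 at 100 µM and 9.1 and 8.97 at 200 µM, against 8.20 and 8.00 in controls. In hypoxia it had 9.93 to 10.12.

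Most genes that break down or take up glucose rose in both arms. Of the 19 measured, 14 rose and 1 fell with CoCl2, and 14 rose and 1 fell with hypoxia, with 14 shared. The median change was 0.74 with CoCl2 and 0.61 with hypoxia. Shares over all genes were 23.3% higher with CoCl2, 12.6% higher with hypoxia and 25.4% called for the difference, the last near that of this list. The difference was called for 5 of the 19: higher for the pyruvate kinase Pkm (1.14 with CoCl2, 0.41 with hypoxia, with a second probe set at a difference of 0.15 that was not called), the glucose transporters Slc2a1 and Slc2a3, and lower for the phosphofructokinases Pfkp (2.08 with CoCl2, 2.75 with hypoxia) and Pfkm (-0.07 and 0.38). For Pkm the controls of experiment 3 started 1.16 below those of the hypoxia sets, and its CoCl2 arrays stayed 0.43 below the hypoxia arrays. Second probe sets of Slc2a3 and Pfkp gave differences of 0.15 and -0.33 that were not called. The 3 higher calls were 1 without control array 2 of experiment 3 and 6 without 200 µM array 1, and the 2 lower ones were 0 without control array 1 of experiment 3. Pgk1 and Ldha had differences of 0.12 ± 0.11 and 0.20 ± 0.16 that were not called. The sensing machinery itself was mixed. Hif1a was called in neither arm (-0.27 with CoCl2, 0.04 with hypoxia), its partner Arnt rose in both (0.95 with CoCl2, 0.46 with hypoxia), and the hydroxylase Egln2 was at 0.12 with CoCl2 and fell by 0.63 in hypoxia. The coactivator-binding inhibitor of HIF, Cited2, fell by 0.44 with CoCl2 and rose by 0.50 with hypoxia. Car9 and Egln3 were not among the genes tested here.

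**Figure D2:**
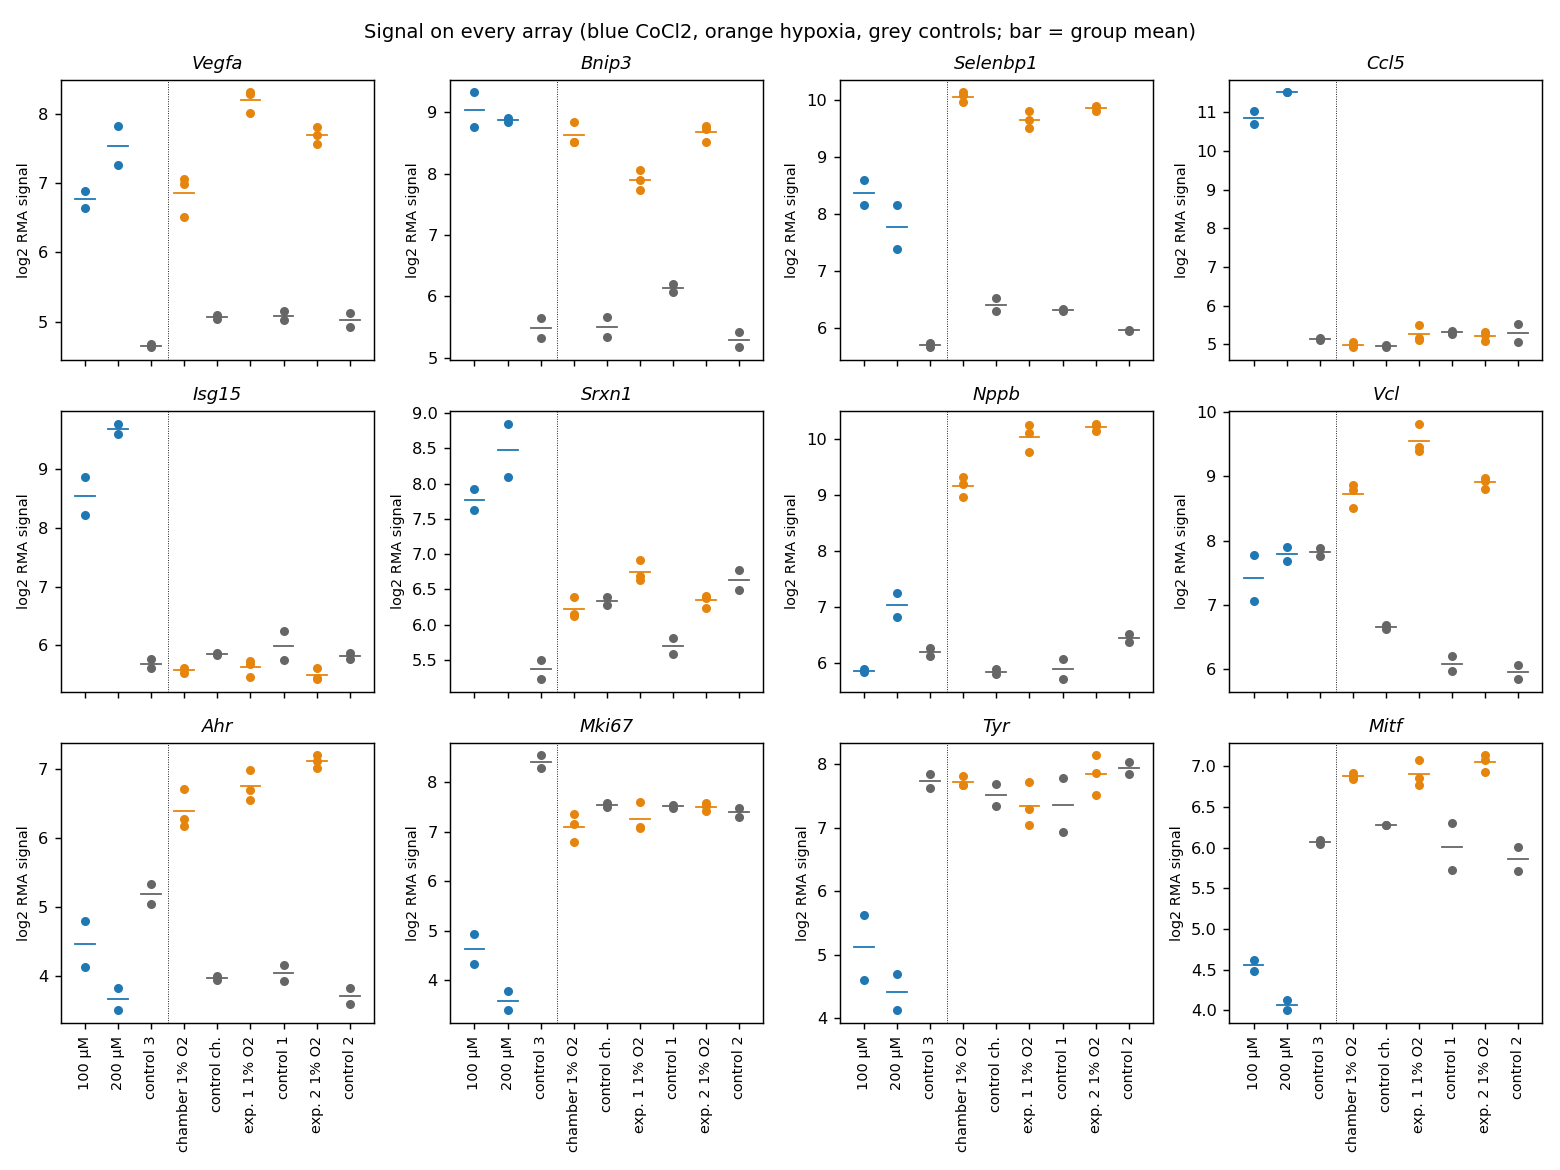
Each point is 1 array and each bar the mean of its group, on the log2 RMA scale, for 12 genes; CoCl2 arrays are left of their controls, and each hypoxia group is left of its own controls. Ccl5, Isg15 and Srxn1 were high on CoCl2 arrays alone, Nppb and Vcl were highest on hypoxia arrays, and Mki67, Tyr and Mitf were lowest on CoCl2 arrays.

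Some chemokine and interferon-induced genes, which respond to antiviral and inflammatory signalling, rose strongly with CoCl2 and did not rise with hypoxia. Ccl5, a chemokine that attracts T cells and monocytes, had a signal of 10.69 and 11.03 at 100 µM and 11.51 and 11.51 at 200 µM, against 5.12 and 5.16 in controls. In hypoxia it stayed within 4.92 to 5.49, with 4.92 to 5.51 in controls. The CoCl2 arrays lay far above every other array, while hypoxia and control arrays overlapped, and the changes of 6.04 ± 0.13 with CoCl2 and -0.03 ± 0.08 with hypoxia gave a difference of 6.08 ± 0.15 (adjusted p = 2.13e-17), the highest of all genes. Isg15, a ubiquitin-like modifier induced by interferon, had 8.22 and 8.87 at 100 µM and 9.61 and 9.77 at 200 µM, against 5.61 and 5.76 in controls, and in hypoxia 5.43 to 5.73, against 5.74 to 6.24 in controls. It rose by 3.43 with CoCl2 and fell by 0.32 with hypoxia (difference 3.75 ± 0.17, adjusted p = 1.26e-12). Rsad2 (viperin, an antiviral enzyme), Ifih1 (the RNA sensor MDA5) and Cxcl10 (a chemokine) were cobalt-only, with CoCl2 changes of 2.60, 2.62 and 2.44 and hypoxia changes of -0.21, -0.11 and -0.10. Gm9706, with 4.40 and -0.08, was read by a probe set that matches a family of sequences, so the member is uncertain.

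Most of the interferon list did not share these large rises. Of 38 measured interferon-induced genes, 13 rose and 4 fell with CoCl2, and 3 rose and 5 fell with hypoxia, while the difference was higher for 12 and lower for 4, against 9.33% and 16% of all genes. With 1 dose alone the difference was higher for 12 at 100 µM and for 7 at 200 µM, and it was higher for 8 without control array 1 of experiment 3. Ifit1, an interferon-induced RNA-binding protein gene, had 5.95 and 6.32 at 100 µM, 4.18 and 3.91 at 200 µM and 3.31 and 3.17 in controls, so it rose more at the lower dose. Irf1, Irf7 and Irf9, regulators of the response, were not called, with CoCl2 changes of 0.01, 0.19 and -0.11. Gbp2, a guanylate-binding protein gene, went the other way, down by 0.65 with CoCl2 and up by 0.81 with hypoxia, and Ifit2 fell by 1.07 with CoCl2. Among 29 chemokines and cytokines 9 rose with CoCl2 and 3 with hypoxia, and the difference was higher for 5 and lower for 0, with Il6 (0.40 with CoCl2, -0.02 with hypoxia) and Il18 (0.37 and -0.04) at low levels. That count of 5 was 3 without control array 1 of experiment 3 and 11 without 100 µM array 2.

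The promoter of Isg15 is given because it had the largest rise with CoCl2 among interferon-induced genes with an entry. The 250 bases before its start lie at chr4:156200819-156201068 (minus strand, GRCm38.p6, RefSeq), and capitals mark matches to the interferon-stimulated response element, that is GAAA, any 2 bases and GAAA again, on either strand, where 3 matches overlap.
Isg15: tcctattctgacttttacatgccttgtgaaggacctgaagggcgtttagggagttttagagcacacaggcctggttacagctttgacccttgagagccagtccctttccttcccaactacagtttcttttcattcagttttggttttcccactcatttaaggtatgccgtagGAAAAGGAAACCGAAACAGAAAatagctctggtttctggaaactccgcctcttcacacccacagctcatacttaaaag
This motif was found in 2.87% of tested promoters, in 37% (11 of 30) of the interferon list, in 5.96% (22 of 369) of cobalt-only rises and in 12.2% (5 of 41) of the opposite genes that rose with CoCl2.

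Antioxidant genes governed by NRF2, a factor freed when its thiol-sensing partner KEAP1 is modified, formed a further group. Of 26 measured, 12 rose and 1 fell with CoCl2, and 5 rose and 7 fell with hypoxia, and the difference was higher for 12 and lower for 1. Over all genes 23.3% rose with CoCl2, 12.6% rose and 19.5% fell with hypoxia, and the difference was higher for 9.33%. Srxn1, which encodes sulfiredoxin, had 7.63 and 7.92 at 100 µM and 8.09 and 8.85 at 200 µM, against 5.50 and 5.23 in controls. In hypoxia it had 6.12 to 6.92 against 5.58 to 6.78 in controls, so CoCl2 arrays were above all others while the hypoxia groups overlapped. Its difference was 2.54 ± 0.19 (adjusted p = 1.03e-09), but a second, dimmer probe set gave 0.39 and was not called, and the controls of experiment 3 started 0.86 below those of the hypoxia sets. Sqstm1 (the autophagy receptor p62), Gclm (a subunit of the glutathione-synthesising ligase) and Slc7a11 (the cystine transporter) were cobalt-only, up by 2.57, 2.11 and 1.63 with CoCl2 and at 0.11, 0.05 and 0.26 in hypoxia. In hypoxia experiment 1 alone Srxn1, Slc7a11 and Sqstm1 rose by 1.05, 0.74 and 0.55. Hmox1, haem oxygenase, is a target of both NRF2 and HIF and was shared, up by 3.16 with CoCl2 and by 0.96 with hypoxia (difference 2.20 ± 0.15, adjusted p = 2.54e-10). Its controls in experiment 3 were at 8.93 and 8.94, against 9.55 to 10.26 in the hypoxia sets, and its treated arrays at 11.88 to 12.50 lay above the hypoxia arrays at 10.44 to 11.39. Pgd and Gsto1 were opposite, up by 0.73 and 0.43 with CoCl2 and down by 0.44 and 0.88 with hypoxia. Nqo1, a standard NRF2 target, was called in neither arm (-0.05 with CoCl2, -0.10 with hypoxia).

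Chaperone genes moved in both directions with CoCl2 and differed between the doses. Of 23 heat shock genes 8 rose and 5 fell with CoCl2, and 2 rose and 9 fell with hypoxia, with the difference higher for 7 and lower for 1. Over all genes 23.3% rose and 23% fell with CoCl2, 12.6% rose and 19.5% fell with hypoxia, and the difference was higher for 9.33%. At 100 µM alone 5 rose and 9 fell, with the difference higher for 3 and lower for 4, and at 200 µM alone 13 rose and 5 fell, with the difference higher for 11 and lower for 1. Of 20 genes of the unfolded protein response 6 rose and 5 fell with CoCl2, and 1 rose and 7 fell with hypoxia, and the difference was higher for 5 and lower for 1, with a median CoCl2 change of -0.03. Hspa1b, the inducible HSP70, had 5.30 and 6.20 at 100 µM and 8.86 and 8.86 at 200 µM, against 5.28 and 5.22 in controls. In hypoxia it had 4.66 to 6.27, against 4.74 to 5.27 in controls, so only the 200 µM arrays stood apart. Its hypoxia change was -0.37 (not called) in the chamber, 0.89 in experiment 1 and 0.65 in experiment 2. The chaperones and co-chaperones Hspa8, Cryab, Bag3 and Hspb8 were cobalt-only with changes of 1.16, 1.09, 1.11 and 1.04, and a second probe set of Cryab gave a difference of 0.32 that was not called. Zfand2a, a zinc finger gene known for its induction by arsenite, rose by 2.18 with CoCl2 and fell by 0.20 with hypoxia, though its dimmer probe set gave a difference of 0.32. Psmb3, Uchl1 and Ufd1, genes of the proteasome, of ubiquitin removal and of ubiquitin-dependent extraction, were opposite, up by 1.20, 1.22 and 0.97 with CoCl2 and down by 0.52, 0.36 and 0.48 with hypoxia. Controls of Psmb3 and Uchl1 in experiment 3 started 0.99 and 0.77 below those of the hypoxia sets. Their CoCl2 arrays lay 0.725 and 0.81 above the hypoxia arrays. Psmb3 had 9.4 and 9.6 at 100 µM and 10.3 and 11.3 at 200 µM, against 8.6 and 9.2 in controls. Of 25 NF-kB targets and regulators the difference was higher for 7 and lower for 2, with the subunit and inhibitor genes Nfkb2, Nfkbia and Relb cobalt-only (1.03, 0.80 and 0.52). That count of 7 was 3 without control array 1 of experiment 3. The stress factor Atf3 rose by 3.05 with CoCl2 and 1.79 with hypoxia, and Ddit3, the stress-induced factor CHOP, by 1.58 and 0.62. Controls of Bag3 and Ddit3 in experiment 3 started 1.00 and 0.77 below those of the hypoxia sets. Their CoCl2 arrays lay 0.03 and 0.19 above the hypoxia arrays, which was not called.

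**Figure D3:**
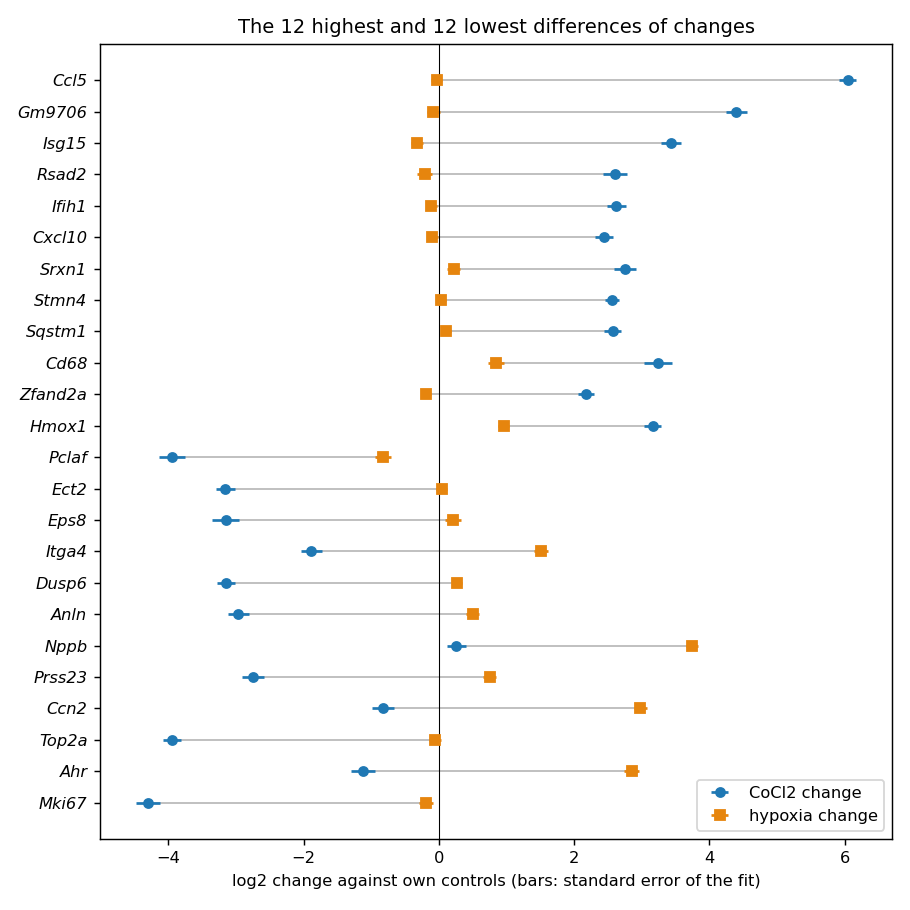
Points give the log2 change with CoCl2 (circles) and with hypoxia (squares), with standard errors, for the 12 genes with the highest and the 12 with the lowest difference of changes among called genes of 1 sign in all 6 pairs of a dose and a hypoxia set. Ccl5 tops the rises, and 7 of the 12 lowest (Ahr, Ccn2, Nppb, Itga4, Prss23, Anln and Dusp6) rose in hypoxia, by 0.27 to 3.74.

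Among the hypoxia-only rises, Nppb led. It encodes the natriuretic peptide B and had 5.84 and 5.88 at 100 µM and 6.82 and 7.25 at 200 µM, against 6.13 and 6.26 in controls, while in hypoxia it had 8.96 to 10.27 with a median of 10.10, against 5.72 to 6.52 in controls. All 9 hypoxia arrays were above all CoCl2 arrays, and the changes were 0.25 ± 0.14 with CoCl2 and 3.74 ± 0.09 with hypoxia (difference -3.49 ± 0.16, adjusted p = 1.26e-12). At 200 µM alone Nppb rose by 0.84 (adjusted p = 0.000241). Vcl, which encodes the focal adhesion protein vinculin, had 7.06 and 7.78 at 100 µM and 7.90 and 7.68 at 200 µM, against 7.88 and 7.77 in controls, and in hypoxia 8.51 to 9.82, against 5.86 to 6.70 in controls. Its hypoxia change was 2.82 and its CoCl2 change -0.22, but the controls of experiment 3 stood 1.59 above those of the hypoxia sets. A dimmer probe set of Vcl gave a difference of -0.95 (called), with changes of 0.37 and 1.32. Other hypoxia-only rises were the immediate early gene Fos (2.14, against -0.65 with CoCl2), the actin-bundling Lcp1 (1.37), the sialyltransferase St3gal1 (1.31), the adhesion molecule Mcam (1.22) and the survival gene Bcl2l1 (0.62). Dimmer probe sets of Fos, Lcp1 and Bcl2l1 gave differences of 0.02, -0.22 and 0.26 in place of -2.78, -1.46 and -0.68.

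The promoter of Vcl is set beside those of the other classes as the second highest hypoxia-only rise. The 250 bases before its start lie at chr14:20929148-20929397 (plus strand, GRCm38.p6, RefSeq), and the single core of the hypoxia response element is in capitals.
Vcl: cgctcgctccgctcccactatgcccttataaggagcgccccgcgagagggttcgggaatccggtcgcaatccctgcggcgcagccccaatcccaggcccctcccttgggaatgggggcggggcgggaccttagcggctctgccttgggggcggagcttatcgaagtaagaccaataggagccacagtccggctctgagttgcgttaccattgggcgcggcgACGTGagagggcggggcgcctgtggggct
A core was present in 67% (77 of 115) of the promoters of hypoxia-only rises, against 53% of tested promoters. The share was 61.1% (55 of 90) in hypoxia-only falls, 61.2% (244 of 399) in cobalt-only falls and 48.8% (180 of 369) in cobalt-only rises. Nppb had 0 in this window.

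The label hypoxia-only did not mean that CoCl2 had no effect at a single dose. Of 146 hypoxia-only rises 52, and of 119 falls 44, were called at 100 µM or 200 µM alone, and 5 and 2 of them were called in opposite directions at the doses. The chaperone gene Hsph1 was one, at 7.24 and 7.60 at 100 µM and 9.62 and 9.11 at 200 µM, against 8.68 and 8.41 in controls, and at 7.09 to 8.05 in hypoxia, against 8.31 to 9.03 in controls. Its difference of 0.96 was -0.01 with 100 µM alone. Txnip, an inhibitor of thioredoxin and of glucose uptake, was another, with 8.97 and 9.19 at 100 µM and 7.71 and 7.60 at 200 µM, against 8.24 and 8.25 in controls. In hypoxia its mean change was -1.16, with 5.70 to 6.98 against 6.40 to 8.21 in controls. It fell by 1.46 in the chamber and by 2.15 in experiment 1, while in experiment 2 the change was 0.15 and was not called. A second probe set gave a difference of 0.26 that was not called. Further hypoxia-only falls were Ifi30 (-1.05), Fbxo9 (-0.93), Tyro3 (-0.91) and the chaperone partner Dnajc3 (-0.91), whose second probe set fell in CoCl2 as well (-0.87). Controls of Ifi30 and Tyro3 in experiment 3 started 0.69 and 0.78 below those of the hypoxia sets. Their CoCl2 arrays lay 0.09 and 0.04 above the hypoxia arrays, which was not called.

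Genes that moved in opposite directions were mostly lower with CoCl2 and higher with hypoxia, 136 of 183. Ahr, the receptor for dioxins and related ligands and a relative of HIF that also pairs with ARNT, had 4.12 and 4.80 at 100 µM and 3.82 and 3.50 at 200 µM, against 5.33 and 5.04 in controls. In hypoxia it had 6.17 to 7.20, against 3.59 to 4.15 in controls. All CoCl2 arrays were below their controls and all hypoxia arrays above theirs, and the changes of -1.12 ± 0.17 and 2.85 ± 0.11 gave a difference of -3.97 ± 0.20 (adjusted p = 3.45e-12). The controls of experiment 3 stood 1.28 above those of the hypoxia sets, and CoCl2 arrays lay 2.69 below hypoxia arrays in level. Among them were 3 targets of the factors SRF and YAP. Ccn2, a matricellular growth factor gene, fell by 0.83 with CoCl2 and rose by 2.98 with hypoxia, and Cnn2, a calponin gene, fell by 0.54 and rose by 2.52. Actn1, an actinin gene, fell by 0.85 and rose by 0.46. The controls of Ccn2 and Cnn2 differed by 0.31 and 0.20 between the arms and were not called. Of the 23 measured SRF and YAP targets the difference was lower for 10 and higher for 0, against 16% and 9.33% of all genes, with 5 up and 6 down with CoCl2 and 9 up and 1 down with hypoxia. Tpm1, a tropomyosin gene, fell by 1.76 with CoCl2 and was at 0.25 in hypoxia.

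Adhesion, signalling and metabolic genes were also among the opposite ones. Itga4, the integrin alpha 4 gene, fell by 1.89 with CoCl2 and rose by 1.51 with hypoxia, and of its 2 dimmer probe sets 1 agreed (-2.21) and 1 did not (-0.13). Dusp6, a phosphatase that restrains ERK, had 5.28 to 5.38 on the 4 CoCl2 arrays, against 8.48 and 8.49 in controls, and in hypoxia 8.42 to 9.23, against 8.31 to 8.73. Myc fell by 0.85 with CoCl2 and rose by 0.71 with hypoxia. The glycogen pathway split: Ugp2, which makes the sugar donor for glycogen, fell by 1.08 with CoCl2 and rose by 1.54 with hypoxia, and glycogenin, Gyg, fell by 1.18 with CoCl2 and was at 0.03 in hypoxia. Glycogen synthase Gys1 and the branching enzyme Gbe1 rose in both, by 1.93 and 1.90 with CoCl2 and by 2.34 and 2.39 with hypoxia. Gbe1 had 7.49 and 7.87 at 100 µM and 5.84 and 6.19 at 200 µM, against 5.10 and 4.79 in controls. The ferroxidase Cp fell by 0.95 with CoCl2, with changes of -0.22 at 100 µM and -1.67 at 200 µM, and rose by 1.03 with hypoxia.

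Genes of mitosis had the largest share of members whose difference was called among the lists examined. Of 41 measured mitosis genes 39 fell with CoCl2, and 25 fell and 2 rose with hypoxia, and the difference was lower for 35 and higher for 0, against 16% and 9.33% of all genes. Their median change was -2.21 with CoCl2 and -0.28 with hypoxia. With 1 dose alone the difference was lower for 35 at 100 µM and 33 at 200 µM, and it was lower for 35 whichever array was left out. Mki67, the marker of proliferating cells, had 4.34 and 4.94 at 100 µM and 3.78 and 3.40 at 200 µM, against 8.55 and 8.29 in controls. In hypoxia it had 6.79 to 7.61, against 7.29 to 7.59 in controls, so the CoCl2 arrays were below all others and the hypoxia groups overlapped. Its difference was -4.11 ± 0.20 (adjusted p = 2.51e-12), the lowest of all genes, with the controls of experiment 3 0.93 above those of the hypoxia sets. A dimmer probe set of Mki67 gave 0.21 and was not called. Top2a, the topoisomerase of dividing cells, had 5.26 and 5.55 at 100 µM and 4.59 and 4.41 at 200 µM, against 9.07 and 8.73 in controls, and 7.68 to 8.45 in hypoxia, against 7.77 to 8.31. The mitotic cyclin gene Ccnb2 (-2.96 with CoCl2, 0.02 with hypoxia), the cytokinesis gene Ect2 (-3.16 and 0.04) and the spindle gene Nusap1 (-3.15 and -0.03, with a dimmer probe set at a difference of -0.17) were cobalt-only. The cytokinesis gene Anln fell by 2.97 with CoCl2 and rose by 0.50 with hypoxia.

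The promoter of Top2a is shown because Top2a was among the mitosis genes with the lowest CoCl2 change. The 250 bases before the start lie at chr11:99024190-99024439 (minus strand, GRCm38.p6, RefSeq), and capitals mark TTTGAA on either strand, the core of the cell cycle genes homology region.
Top2a: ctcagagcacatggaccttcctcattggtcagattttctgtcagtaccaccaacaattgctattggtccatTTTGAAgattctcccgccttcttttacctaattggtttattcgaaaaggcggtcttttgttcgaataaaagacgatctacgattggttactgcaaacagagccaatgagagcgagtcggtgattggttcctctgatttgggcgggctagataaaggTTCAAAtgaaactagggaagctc
The nearer of 2 matches began 23 bases before the start. This core was present in 11.6% of tested promoters, in 42% (14 of 33) of the mitosis list, in 12.5% (50 of 399) of cobalt-only falls and in 10.6% (97 of 918) of shared falls.

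DNA replication genes, by contrast, fell in both arms and differed in depth. Of 46 measured, 41 fell and 3 rose with CoCl2 and 40 fell with hypoxia, 39 in common, and the difference was lower for 34. By comparison, 23% of all genes fell with CoCl2 and 19.5% with hypoxia, and the difference was lower for 16%. The median change was -1.51 with CoCl2 and -0.61 with hypoxia. Cdc6, which loads the replicative helicase, had 4.34 and 4.31 at 100 µM and 4.62 and 4.28 at 200 µM, against 8.08 and 8.18 in controls, and in hypoxia 5.44 to 6.68, against 7.31 to 8.10. It fell by 3.74 with CoCl2 and by 1.62 with hypoxia, with no overlap of treated and control arrays in either arm. Rrm2, a subunit of ribonucleotide reductase, fell by 3.28 with CoCl2 and 1.64 with hypoxia, and the helicase subunit Mcm4 by 2.50 and 0.77. Of all 1098 shared falls the difference was called in 516, and the fall was larger with CoCl2 in 510 of these. Among shared rises it was called in 123 of 482, with the larger rise with CoCl2 in 99. The cell cycle inhibitor Cdkn1a, a p53 target, rose by 1.68 with CoCl2 and 1.85 with hypoxia and the difference was not called (-0.17 ± 0.30).

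Pigment genes fell with CoCl2, and fewer of them, by smaller amounts, fell with hypoxia. Of 14 measured melanocyte genes 12 fell and 1 rose with CoCl2, and 6 fell and 1 rose with hypoxia, while the difference was lower for 11 and higher for 0. Shares over all genes were 23% lower with CoCl2, 19.5% lower with hypoxia and 16% lower for the difference. The median change was -1.57 with CoCl2 and -0.17 with hypoxia. Tyr, tyrosinase, had 4.60 and 5.63 at 100 µM and 4.70 and 4.13 at 200 µM, against 7.85 and 7.63 in controls, and in hypoxia 7.04 to 8.14, against 6.94 to 8.04. The CoCl2 arrays were below every other array, and the difference was -3.00 ± 0.30 (adjusted p = 1.05e-07). Dct and Tyrp1, the other melanin enzymes, fell by 2.56 and 2.41 with CoCl2 and were at -0.08 and -0.06 in hypoxia, and Pmel, the melanosome fibril gene, fell by 2.48 and 0.24. Tyrp1 fell by 1.10 at 100 µM and by 3.72 at 200 µM. Mitf, the master regulator of these genes, was opposite, with 4.62 and 4.48 at 100 µM and 4.12 and 4.0 at 200 µM, against 6.10 and 6.04 in controls, and 6.78 to 7.14 in hypoxia, against 5.71 to 6.30. Its controls differed by only 0.02 between the arms, and the difference of changes was -2.66 ± 0.15 (adjusted p = 1.98e-11). The summed signal of the list on the linear scale was 4374 to 5002 at 100 µM, 1793 to 1823 at 200 µM and 12790 to 13520 in their controls, and 11140 to 13020 in hypoxia, against 13220 to 14270 in controls.

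**Figure D4:**
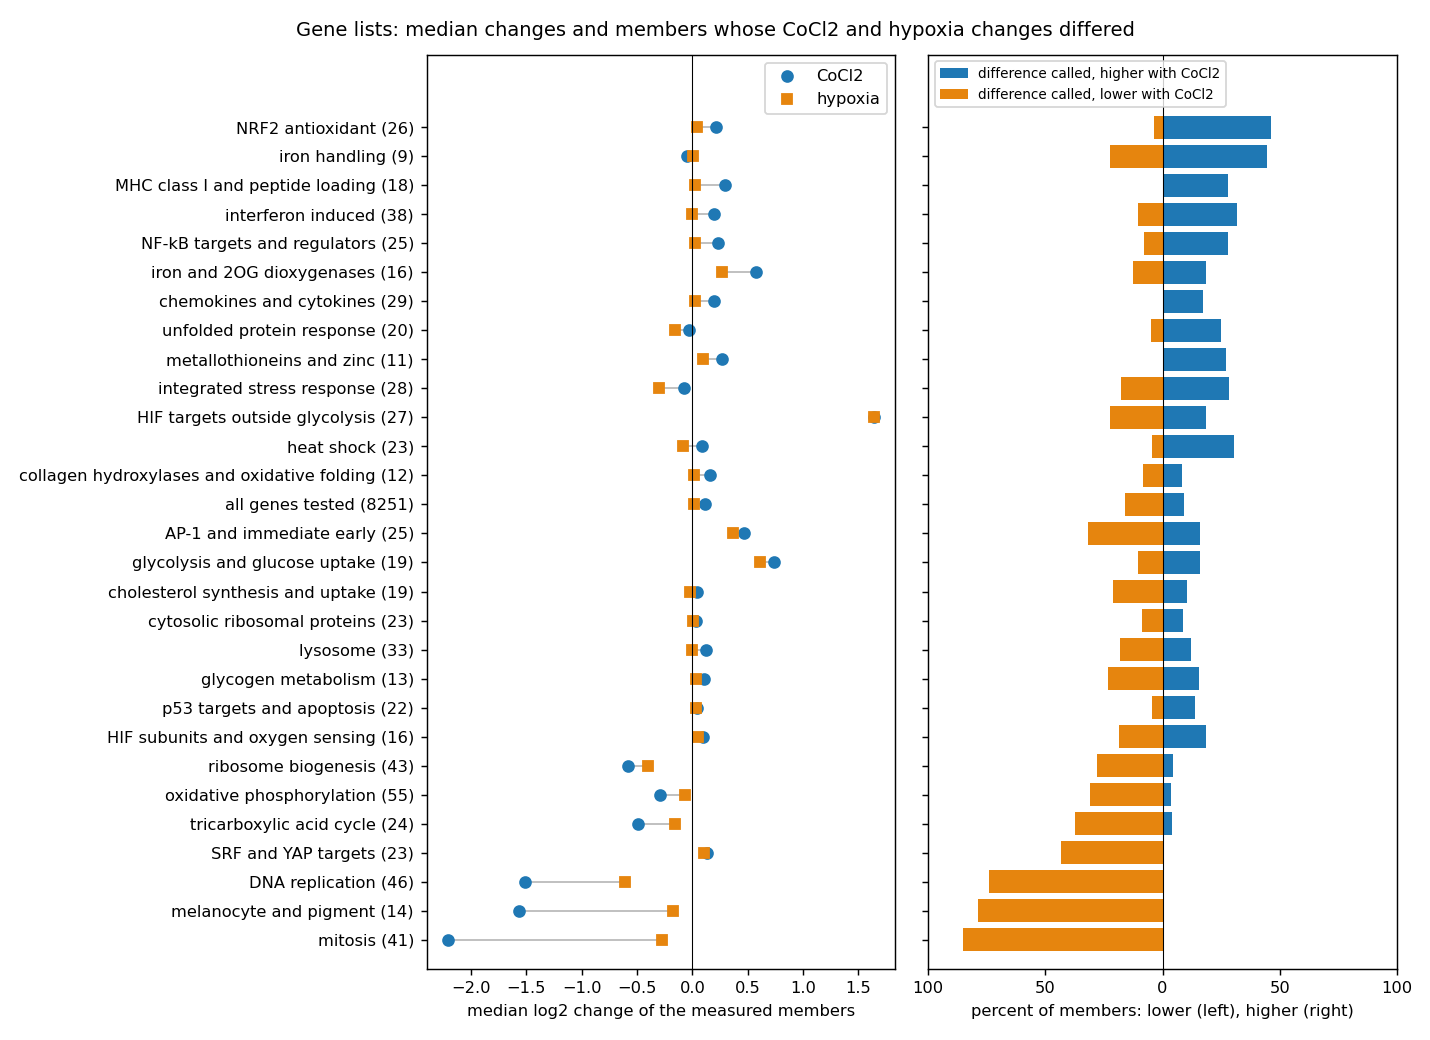
The left panel gives the median log2 change of each gene list with CoCl2 (circles) and with hypoxia (squares), with the number of measured members in brackets; the right panel gives the percentage of members whose difference of changes was called, lower with CoCl2 to the left and higher to the right. Mitosis (35 of 41), melanocyte genes (11 of 14) and DNA replication (34 of 46) extend furthest to the left, and HIF targets share a median of 1.64 in both arms.

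Genes of mitochondrial energy metabolism fell in part with CoCl2, those of oxidative phosphorylation mainly at the lower dose. Of 55 oxidative phosphorylation genes 23 fell and 6 rose with CoCl2, and 14 fell and 2 rose with hypoxia, with the difference lower for 17 and higher for 2. Among all genes tested 23% fell and 23.3% rose with CoCl2, and 19.5% fell and 12.6% rose with hypoxia. The difference was lower for 16% and higher for 9.33% of them. At 100 µM alone 34 fell with CoCl2 and the difference was lower for 19 and higher for 2, with a median of -0.41, while at 200 µM alone 13 fell and it was lower for 11 and higher for 5, with a median of 0.05. It was lower for 10 without control array 1 of experiment 3. The 100 µM arrays also had the highest Actb 3′ minus 5′ values, 2.16 to 2.36. Cytochrome c, Cycs, fell by 1.20 with CoCl2 and by 0.27 with hypoxia, and the succinate dehydrogenase subunit Sdhb by 1.29 and 0.50. Of 24 genes of the tricarboxylic acid cycle 15 fell with CoCl2 and 9 with hypoxia, and the difference was lower for 9 and higher for 1, with the isocitrate dehydrogenase Idh2 at -1.83 with CoCl2 and -0.61 with hypoxia. At 100 µM alone 16 of the 24 fell, and at 200 µM alone 12 did. Ribosome biogenesis fell in both, 27 of 43 genes with CoCl2 and 28 with hypoxia, and 24 of these falls were shared. Of 16 iron and 2-oxoglutarate dioxygenases, the enzyme family to which EGLN proteins belong, 11 rose with CoCl2 and 10 with hypoxia. Jmjd6 rose by 2.08 with CoCl2 and 1.62 with hypoxia, and Kdm3a by 1.64 and 1.45.

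Genes of metal handling moved in both directions, as did genes at large. Of all genes tested 23.3% rose and 23% fell with CoCl2, and 12.6% rose and 19.5% fell with hypoxia. Their difference was higher for 9.33% and lower for 16%. Of 11 metallothionein and zinc genes 4 rose with CoCl2 and 2 with hypoxia, with the difference higher for 3 and lower for 0, and higher for 1 without chamber control array 2. Mt2, a metallothionein, rose by 0.86 with CoCl2 and 0.47 with hypoxia. Controls of Mt2 in experiment 3 were 0.62 below those of the hypoxia sets. Its CoCl2 arrays lay 0.22 below the hypoxia arrays, which was not called. Mt1 had 7.45 and 7.90 at 100 µM and 8.74 and 12.16 at 200 µM, against 8.40 and 8.93 in controls, and 11.47 to 12.16 in hypoxia, against 10.89 to 11.60. The arrays at 200 µM lay far apart, the change was called in neither arm, and the controls of experiment 3 were 2.53 below those of the hypoxia sets. Of 9 measured genes of iron handling 3 rose and 3 fell with CoCl2, and 3 rose and 1 fell with hypoxia. The difference was higher for 4 (Hmox1, Tfrc, Alas1 and Slc11a2) and lower for 2 (Cp and Ireb2), and higher for 1 without control array 1 of experiment 1. The transferrin receptor Tfrc, which takes up iron, rose by 0.46 with CoCl2 and was at -0.03 in hypoxia. Ireb2, which encodes an iron regulatory protein, fell by 0.79 with CoCl2 and was at -0.02 in hypoxia.

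The difference of changes was also taken for each dose and each hypoxia set. It was called for 1534 genes (18.6%) at 100 µM and 2248 (27.2%) at 200 µM against the mean of the hypoxia sets. Against single sets, the mean of both doses differed in 1125 genes (13.6%) from the chamber, 1922 (23.3%) from experiment 1 and 1879 (22.8%) from experiment 2. These comparisons share arrays, and each set used 1 device, so the set and the device cannot be told apart. Of the cobalt-only genes 293 of 467 rises and 366 of 492 falls were called at both doses, and 53 and 81 were called in at least 1 hypoxia set. Of the opposite genes the difference was called at both doses in 37 of the 47 that rose and 117 of the 136 that fell with CoCl2.

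Markers of other cell types were read in the same way. Of 15 leukocyte markers 4 rose with CoCl2 and 2 with hypoxia, near the 23.3% and 12.6% of all genes, among them Cd68 (3.24 with CoCl2, 0.84 with hypoxia), a lysosomal protein gene that is not restricted to leukocytes and whose dimmer probe set gave a difference of 0.05. The defining leukocyte genes Ptprc, Itgam and Adgre1 were at 0.08, 0.20 and 0.31 with CoCl2 and were not called. The summed linear signal of the list was 734 to 851 at 100 µM, 899 to 1127 at 200 µM and 540 to 567 in controls, and 548 to 655 in hypoxia, against 524 to 613 in controls. At 200 µM most of the rise in this sum was Cd68, at 8.11 and 9.24 against 4.46 and 4.94 in controls. The median change of the leukocyte list was 0.25 with CoCl2, against 0.12 over all genes. Of 12 epithelial markers 8 rose with CoCl2 and 2 with hypoxia, by 0.74 at most (Dsp). Of 13 fibroblast markers 3 were higher and 3 lower after CoCl2, near the 23.3% and 23% of all genes. Fbln1 fell by 0.78, while its other probe sets were at -0.25 and -0.22 (not called) and 0.33 (called). Of 10 endothelial markers 1 rose and 1 fell with CoCl2, and 1 fell with hypoxia. The one that fell in both was Eng, by 0.87 with CoCl2 and 0.49 with hypoxia, while Pecam1, Cdh5 and Kdr were called in neither arm. The summed linear signal of the endothelial list was 1052 to 1103 at 100 µM, 993 to 1158 at 200 µM and 1673 to 1755 in their controls, and 1144 to 1577 in hypoxia, against 1497 to 1931 in controls. Most of this endothelial sum was Eng, at 10.58 and 10.49 in controls of experiment 3 and at 9.53 to 9.80 with CoCl2. The median change of the endothelial list was 0.17 with CoCl2. The part of these markers in the results was not tested, and in RNA from whole cultures fewer cells of a kind and less RNA per cell cannot be told apart.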

How the data were processed

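The deposited values are log2 RMA signals, 1 per probe set and array; GCOS (version 1.2) and RMA were used per the submitters' processing notes, while the version of RMA and the number of runs are not stated there. Array medians lay between 5.44 and 5.53, and no further scaling was applied. The number of arrays, 2 or 3 per group, limits the precision. Controls whose titles name no experiment were taken as those of the chamber, whose titles name none either. Of 12488 probe sets, 10833 had 1 gene symbol, and the one with the highest mean represented each of 8251 genes, 395 of them through sets that match a sequence family (_f_at).

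Group means were estimated for all 21 arrays in 1 linear model with limma 3.58.1 in R 4.3.3 (12 residual degrees of freedom, 20.9 after moderation). All tests were two-sided, with Benjamini-Hochberg adjustment over all genes. The fit was tested on simulated data in which each gene had 1 spread in all groups. That test could not show what the wider spread of the CoCl2 groups does to the calls. The CoCl2 change is the mean of both doses and the hypoxia change the mean of 3 sets with equal weight. Named genes are, by rule, the 12 highest and 12 lowest called differences of 1 sign in the 6 pairs of dose and set, up to 8 genes per class and direction, up to 5 members per list with the largest difference, and a fixed set. Other members of a list are named to show its spread and were chosen with their values seen. The members, lists and rules were chosen with earlier results of these data known. The comparison of controls between experiments and each dose alone as the CoCl2 arm were added after the data were seen. Lists are described by counts and medians, with no set test. Replicate numbers are shared between groups, but residuals of same-numbered arrays correlated between -0.37 and 0.379 over 75 pairs, so they were not treated as pairs. Promoters are from RefSeq (GRCm38.p6), matched by symbol for 6576 genes, with the first start listed and chromosome 18 left out.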

Additional observations from a re-analysis of the deposited data

Results flagged for a closer look

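Signal was also present in data outside the comparisons by gene. Of 1193 probe sets with no gene name in the annotation used here, 138 (11.6%) had CoCl2 and hypoxia changes that differed at an adjusted p under 0.05 in limma, 66 higher and 72 lower with CoCl2, with differences between -3.33 and 1.23. Groups of 2 or 3 arrays are too small for the check for a single array far from the others.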

How the results depend on the processing

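There were 2092 genes called for the CoCl2 minus hypoxia difference, and 1580 genes were shared, 959 cobalt-only, 265 hypoxia-only and 183 opposite; no gene called for the difference both here and under an alternative changed sign. At an adjusted p under 0.01 the difference was called for 1273 genes, with 609 cobalt-only and 86 opposite. With changes of at least 1 log2 unit required, 377 genes were called, with 109 shared, 274 cobalt-only, 16 hypoxia-only and 4 opposite. Array weights left 576 cobalt-only genes, and 100 µM alone, chosen after seeing the data, left 118 opposite ones. Leaving out each array in turn gave 1182 (without control array 1 of experiment 3) to 3409 (without 100 µM array 2) called differences, 1302 to 1785 shared, 459 to 1866 cobalt-only, 181 to 324 hypoxia-only and 105 to 277 opposite genes, so these counts rest on single arrays of experiment 3. The share of called genes that were higher with CoCl2 was 36.8%, against 31.7% after median centring and 43.1% after quantile normalisation. With the replicate number as a block 1893 differences were called; the numbers share no stated source. Of 67 named genes followed over up to 32 settings (10 had no value with low genes left out) 48 kept their side of the threshold wherever they had one, 19 did not in at least 1, and Hsph1 reversed, to -0.01308 with 100 µM alone (adjusted p = 0.969, limma). The few arrays per group limit the precision.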
